A study of Mus musculus with 6 samples.

Results

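The TRIM (tripartite motif) family was followed in high binding cells (HBC) and low binding cells (LBC), sorted for how much FcsFNDC4 they bound. FcsFNDC4 is the soluble part of FNDC4 joined to a human Fc, and the sort was part of a search for its receptor on fat cells. Both groups descend from immortalised preadipocytes of the stromal vascular fraction, taken from inguinal white fat of male 129SVE mice, and were profiled at passage 20. Each group was 1 population, sorted, expanded and sorted again over up to 20 passages. It was profiled as 3 technical replicates, which the paper also calls replicate wells. The p-values below therefore measure the spread between arrays and not between independent sorts. Replicates 2 and 3 of LBC carry a source name that reads HBC, and all arrays were grouped by title, which matches the description and the phenotype. The members are the genes whose symbol is Trim, a number and at most 1 letter, and which had a transcript cluster (the array's set of probes for 1 transcript unit) annotated to that gene alone. This gave 58 genes of 19938 that had such a cluster, and each of the 58 had exactly 1. By the same symbol rule RefSeq lists 68 mouse genes. Trim5, Trim17, Trim30b, Trim43a, Trim43b, Trim43c, Trim60 and Trim61 were read only by clusters shared between genes, and Trim30c and Trim34b were not analysed here.

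TRIM proteins are built from a RING finger, B-box zinc fingers and a coiled coil, followed by a carboxy-terminal end that differs between classes. The RING finger makes most of them ubiquitin ligases, which take ubiquitin from an E2 enzyme and hand it to a substrate chosen by the end of the protein. Members with a SPRY end include sensors of viral capsids and regulators of RNA sensing, and many are induced by interferon. Members with a PHD finger and a bromodomain work in chromatin, and members with NHL repeats bind RNA or proteins.

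A genome neighbourhood holds much of the result that follows. In RefSeq (GRCm38.p6), chromosome 7 carries Trim21, Trim68, Trim6, Trim34a, Trim5, Trim12a, Trim34b, Trim12c, Trim30b, Trim30c, Trim30a and Trim30d in this order, with Trim28 before and Trim3, Trim66 and Trim72 after them. RefSeq promoters (250 bases before to 50 after the gene start) were matched for 46 of the 58 members, among them 7 of the 8 members called higher in HBC below, all but Trim14. They were searched on both strands for the core of the interferon-stimulated response element (ISRE), a pair of GAAA runs separated by any 2 bases, which is bound by interferon regulatory factors. The windows below run 5′ to 3′ on the strand of the gene, show up to 25 bases on either side of the match and stop 30 bases into the gene. Capitals mark the ISRE core, which reads as TTTC runs where it lies on the other strand. The windows are shown to set side by side the 6 members called higher whose promoter holds the core, with Trim26, an uncalled member of the interferon-inducible list, beside them.
Trim30a, chr7:104465195-104465254, minus strand: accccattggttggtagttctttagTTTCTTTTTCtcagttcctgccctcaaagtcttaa
Trim30d, chr7:104507856-104507915, minus strand: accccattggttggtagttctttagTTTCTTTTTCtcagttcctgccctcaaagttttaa
Trim12a, chr7:104315466-104315510, minus strand: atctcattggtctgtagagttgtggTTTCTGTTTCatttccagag
Trim12c, chr7:104353344-104353403, minus strand: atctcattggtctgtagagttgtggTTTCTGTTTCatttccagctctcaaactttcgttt
Trim34a, chr7:104244442-104244486, plus strand: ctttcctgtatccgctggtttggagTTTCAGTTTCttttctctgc
Trim21, chr7:102565453-102565494, minus strand: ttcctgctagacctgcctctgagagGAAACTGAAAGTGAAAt
Trim26, chr17:36836961-36837026, plus strand: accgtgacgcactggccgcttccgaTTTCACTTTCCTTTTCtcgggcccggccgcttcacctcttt

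Lined up on the core, the windows of Trim30a and Trim30d were identical at 59 of 60 bases and those of Trim12a and Trim12c at 43 of 45, while Trim30a and Trim12a shared 26 of 45. In Trim21 and in Trim26 the capitals mark a pair of overlapping matches. The ISRE core was found in 6 of the 7 matched members called higher in HBC (85.7%), the exception being Trim25, and in 2 of the other 39 (5.13%), Trim26 and Trim2. It stood in 3.44% of all 32851 promoters of this length and, counted by gene as for the members, in 3.99% of all 27025 genes in the table. Among the tested genes it stood in 63 of 380 called higher in HBC (16.6%) and in 3.57% of the 15234 others. TTCNNNGAA, the core of a STAT binding site, which reads the same on both strands, was found in 0 of the 7 and in 5 of the 39 (12.8%), and in 9.55% of all genes in the table. A match is a string of letters in this window and not a bound site.

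Gene signals were compared as log2(intensity + 16) with limma across all 19938 genes, and a gene was called when its Benjamini-Hochberg adjusted p was under 0.05 and its fold on that scale above 1.5. Of the 58 members, 8 were called higher in HBC (13.8%), against 2.54% of all genes, and 1 was called lower (1.72%), against 1.13% of all genes. The 8 were Trim30a, Trim30d, Trim12a, Trim14, Trim12c, Trim21, Trim34a and Trim25, and the 1 was Trim37. Among the 49 members that were not called, log2 fold changes lay between -0.37 and 0.52, and 42 of them were smaller than 0.25 in size. The median log2 fold change was -0.05 over the members and -0.07 over all genes. By adjusted p alone, 11 members were higher (6.93% of all genes) and 5 were lower (11.4% of all genes). In 14 members every HBC array lay above every LBC array (10.1% of all genes) and in 7 every HBC array lay below (25.1% of all genes). Counts at an unadjusted p under 0.05 are given below without a share of all genes, which was not counted at that threshold. They cannot be read as more or fewer than among all genes. These are bulk cell populations, so more RNA per cell and more cells of a type cannot be told apart.

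**Figure D1:**
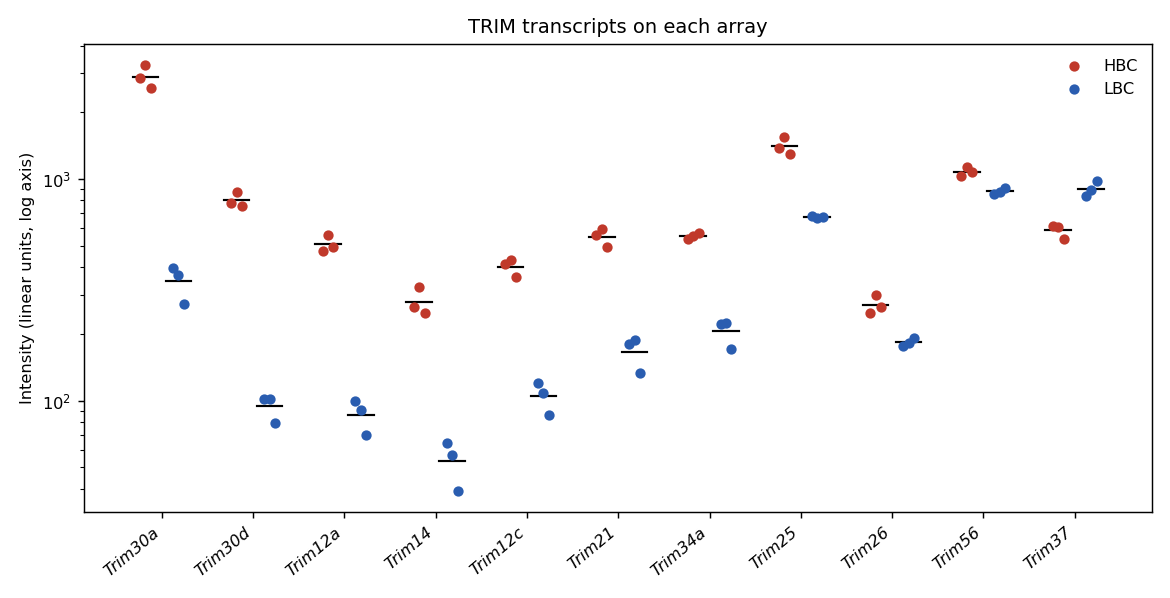
Intensities (log axis) of the 9 called members and of Trim26 and Trim56 on each array, 3 HBC arrays left of 3 LBC arrays of 1 sorted population each, with a bar at the mean of each group. HBC points of Trim30a lie between 2573 and 3258 and LBC points between 272 and 396, and the groups do not overlap in any of the genes drawn.

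**Figure D2:**
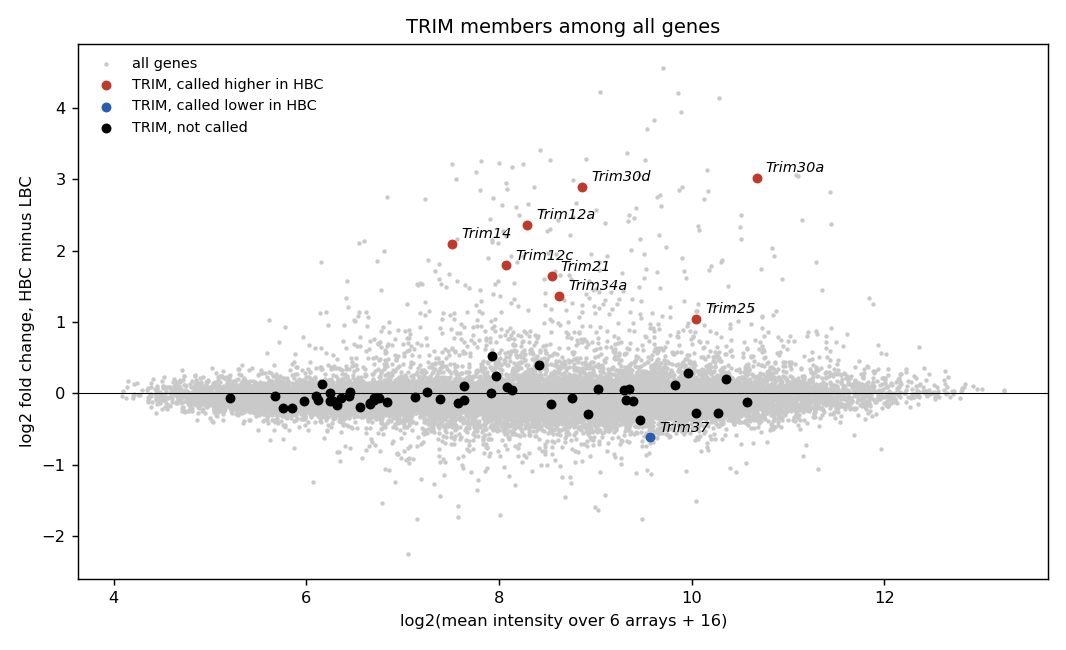
Log2 fold change (HBC minus LBC) against log2(mean intensity over 6 arrays + 16) for all 19938 genes in grey, with the 58 members over them in red (called higher), blue (called lower) and black (not called). The 8 members called higher stand at 1.05 to 3.02, while Trim37, called lower, stands at -0.61.

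Arrays of a group correlated at 0.996 to 0.999 over log2 values and arrays of different groups at 0.980 to 0.986. As a check on the cell type, the summed intensity of 12 preadipocyte or fibroblast markers, Pdgfra, Pdgfrb, Dlk1 and Col1a1 among them, was 22519 to 25367 in HBC and 18719 to 21832 in LBC. Of the 12, 1 was called higher, against 2.54% of all genes, the collagen gene Col3a1 (0.80, adjusted p = 1.8e-08). By adjusted p alone 5 were higher (6.93% of all genes) and 2 lower (11.4% of all genes), and the lower ones were Cd34 (-0.45) and Cd24a (-0.39). The summed intensity of 11 macrophage markers was 893 to 927 in HBC and 1004 to 1068 in LBC, and limma called 0 of them higher (0 also at an unadjusted p under 0.05 and by the methods' t-test). None was called lower, but 4 were lower at an unadjusted p under 0.05. In 4 every HBC array lay below every LBC array (25.1% of all genes). Of these, 1 passed the adjusted p (11.4% of all genes), Cd14 (-0.48, adjusted p = 8.9e-05). Ptprc (CD45), which marks all white blood cells, averaged 59.8 ± 3.55 in HBC and 69.9 ± 5.69 in LBC (SD, n = 3 arrays each). For lymphocytes, 7 markers summed to 442 to 476 in HBC and 455 to 523 in LBC, and for endothelial cells 7 markers summed to 399.5 to 462 in HBC and 409.5 to 498 in LBC. For adipocytes, 7 markers summed to 2801 to 2967 in HBC and 2118 to 2487 in LBC, of which Fabp4 gave 2363 ± 78.1 in HBC and 1774 ± 246 in LBC (log2 fold change 0.42, adjusted p = 0.0013). Retn had 187 ± 5.36 in HBC and 120 ± 11.4 in LBC (0.58, adjusted p = 7.9e-06), and Adipoq had 43.0 ± 0.523 in HBC and 40.7 ± 4.91 in LBC. The remaining markers, Plin1, Ucp1, Cidec and Lep, had log2 fold changes between -0.13 and -0.005, and the median of the 7 was -0.005. None of the 7 was called, and the part of these markers in the results was not tested. As a gauge of dim signal, chosen after the values were seen, the mean intensities of 1027 olfactory receptor genes were used, whose percentiles 10 and 90 were 13.8 and 83.7. In both groups 15 members lay inside this span. Cd24a and Ptprc also did, so their differences are between dim signals. Means at or under 83.7 were found for 6 of the 11 macrophage and 5 of the 7 lymphocyte markers in each group. The same held for 7 endothelial markers in HBC and 6 in LBC, 4 adipocyte markers and 2 preadipocyte or fibroblast markers in each group. Sums of mostly dim markers are therefore not a measure of expression.

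The members with the largest changes, Trim30a, Trim30d and Trim12a, lie in the chromosome 7 neighbourhood of genes related to primate TRIM5, a protein known for blocking incoming retroviral capsids. Trim30a, which in mice restrains Toll-like receptor signalling to NF-kappaB, had intensities of 2852, 3258 and 2573 in HBC and of 396, 369 and 272 in LBC. Every HBC array was several times brighter than any LBC array. The means were 2895 ± 344 in HBC and 345.5 ± 65.3 in LBC (SD, n = 3 arrays each), a ratio of 8.38, with a log2 fold change of 3.02 ± 0.11 (SE) and an adjusted p of 1.7e-19, the rank 23 change of all genes.

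Trim30d, a rodent paralog of Trim30a, read 781, 874 and 755 in HBC and 102, 101.5 and 79.5 in LBC. All HBC arrays lay far above all LBC arrays. The ratio of the means was 8.51 and the log2 fold change 2.90 ± 0.09 (SE, adjusted p = 2.3e-20), rank 28 of all genes. With 1 added before the logarithm the log2 fold change was 3.08, and with 50 added 2.56.

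Trim12a, a rodent relative of TRIM5, read 475, 559 and 495 in HBC and 99.6, 90.5 and 69.7 in LBC. The groups did not overlap, at 509.7 ± 43.6 in HBC and 86.6 ± 15.3 in LBC, and the log2 fold change was 2.37 ± 0.10 (SE, adjusted p = 5.0e-18). For Trim12a it was 2.56 with 1 added before the logarithm and 2.04 with 50 added. Its paralog Trim12c read 413, 432 and 361 in HBC and 119.6, 108.6 and 86.0 in LBC. The lowest HBC array of Trim12c lay far above the highest LBC array, with a log2 fold change of 1.80 ± 0.10 (SE, adjusted p = 3.4e-15). Trim30a and Trim30d, and likewise Trim12a and Trim12c, are paralogs that lie close together, and how far the probes of a gene also read its paralog was not tested.

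Trim34a, whose human counterpart TRIM34 acts on retroviral capsids together with TRIM5, read 538, 552 and 568 in HBC and 222.5, 223 and 171 in LBC. All HBC arrays were above all LBC arrays, and the HBC arrays were close to each other. The ratio of the means was 2.69 and the log2 fold change 1.37 ± 0.09 (SE, adjusted p = 8.1e-13).

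Not every neighbour was called. Trim6, which lies next to Trim34a, read 72.7, 73.0 and 70.7 in HBC and 69.9, 68.8 and 74.0 in LBC, so that the groups overlapped inside the olfactory receptor span (log2 fold change 0.02 ± 0.08, SE, adjusted p = 0.89). Trim68 had a log2 fold change of 0.10 ± 0.09 (SE, adjusted p = 0.45). Of the 12 members on chromosome 7, 6 were called higher, against 2.54% of all genes, and the median change of the 12 was 0.81 on the log2 scale. Of the other 46, 2 were called higher and 1 lower, with a median of -0.07. Clusters shared between genes of the neighbourhood were tested over all 35556 clusters, of which 1.88% were called higher, and the 2 that include Trim5 were among these.

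Trim21, also on chromosome 7, is a cytosolic receptor for the Fc part of antibodies and a ligase that sends antibody-coated particles to the proteasome. It read 561, 597 and 492 in HBC and 179, 187 and 134 in LBC, with no overlap. The means were 550.1 ± 53.4 in HBC and 167 ± 28.8 in LBC (SD, n = 3 arrays each), and the log2 fold change was 1.64 ± 0.10 (SE, adjusted p = 7.4e-14).

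The other members called higher lie outside chromosome 7 and act in RNA sensing. Trim25, on chromosome 11, is a ligase that attaches ubiquitin chains to RIG-I, the cytosolic sensor of viral RNA, and also transfers the ubiquitin-like ISG15. It read 1382, 1551 and 1293 in HBC and 680.3, 664 and 672 in LBC. The LBC arrays lay within a narrow band well under the HBC arrays, and the log2 fold change was 1.05 ± 0.09 (SE, adjusted p = 8.3e-11), with a ratio of 2.10.

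Trim14, on chromosome 4, lacks a RING finger and serves as an adaptor of the mitochondrial protein MAVS downstream of RIG-I. It read 265, 325 and 249 in HBC and 64.1, 56.8 and 39.2 in LBC. The groups did not overlap, and all LBC arrays lay within the span of the olfactory receptor genes. The means were 279.6 ± 40.2 in HBC and 53.4 ± 12.8 in LBC, and the log2 fold change was 2.10 ± 0.11 (SE, adjusted p = 1.2e-15). Its size depends on the offset because LBC was dim, at 2.39 with 1 added before the logarithm and 1.67 with 50 added, and it was called with each.

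The members were also set against a list of TRIM genes known to be induced by interferon. This list was chosen with earlier results of these data known, so the counts below are a description and not a test. Of its 16 genes 12 had a cluster of their own, and all 8 members called higher were among these 12, against 2.54% of all genes called higher. The median change of the 12 was 1.51 on the log2 scale, and in 11 of the 12 every HBC array lay above every LBC array, against 10.1% of all genes. Of the 46 members outside the list, 0 were called higher by limma or by the methods' t-test, 3 were higher at an unadjusted p under 0.05, 1 of these (Trim47) passed the adjusted p, and the median was -0.08. Of the same 46, 1 was called lower (1.13% of all genes), and 5 were lower by adjusted p alone (11.4% of all genes).

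The 4 listed genes that were not called were Trim26, Trim56, Trim69 and Trim38. Trim26, a ligase encoded in the major histocompatibility complex on chromosome 17, stood just outside the fold threshold. It read 248, 300.4 and 265 in HBC and 177, 182 and 192 in LBC, without overlap, and its log2 fold change was 0.52 ± 0.09 (SE, adjusted p = 4.6e-05).

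Trim56, a ligase of cytosolic DNA sensing, read 1026, 1131 and 1075 in HBC and 857, 876 and 906 in LBC. The groups did not overlap, and the ratio was 1.22 (log2 fold change 0.29 ± 0.08, SE, adjusted p = 0.015). Trim69, a SPRY ligase, was dim, with 58.9 ± 2.65 for HBC against 52.2 ± 2.68 for LBC (adjusted p = 0.28).

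Trim38, a ligase that dampens innate signalling, was the exception of the list. It averaged 34.5 ± 3.70 in HBC and 35.8 ± 5.56 in LBC, inside the olfactory receptor span, with overlapping groups and an adjusted p of 0.83.

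Sorted by the end of the protein, the calls lay in few classes. Of 27 members of the SPRY class, 7 were called higher and 20 were not called, against 2.54% of all genes called higher and 1.13% called lower, and the log2 fold changes of the class ran from -0.27 to 3.02 around a median of 0.03. Of 4 members grouped as without a RING finger and kept as a class of their own, 1 (Trim14) was called higher. Trim66 was counted by its PHD finger and bromodomain and is not in that group. Trim80 was placed in no class and was not called (log2 fold change -0.07). None of 4 members with a PHD finger and a bromodomain, 5 with an NHL or filamin end and 8 with a COS box, a microtubule-binding motif, was called in either direction by limma or by the methods' t-test (1 was higher and 1 lower at an unadjusted p under 0.05), and of the 9 with another end 1 was called lower. Trim12a was placed with its SPRY relatives, although its protein is known to be truncated at that end. The class medians were -0.003 for PHD and bromodomain, -0.09 for NHL or filamin, -0.08 for COS and -0.11 for the other ends.

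**Figure D3:**
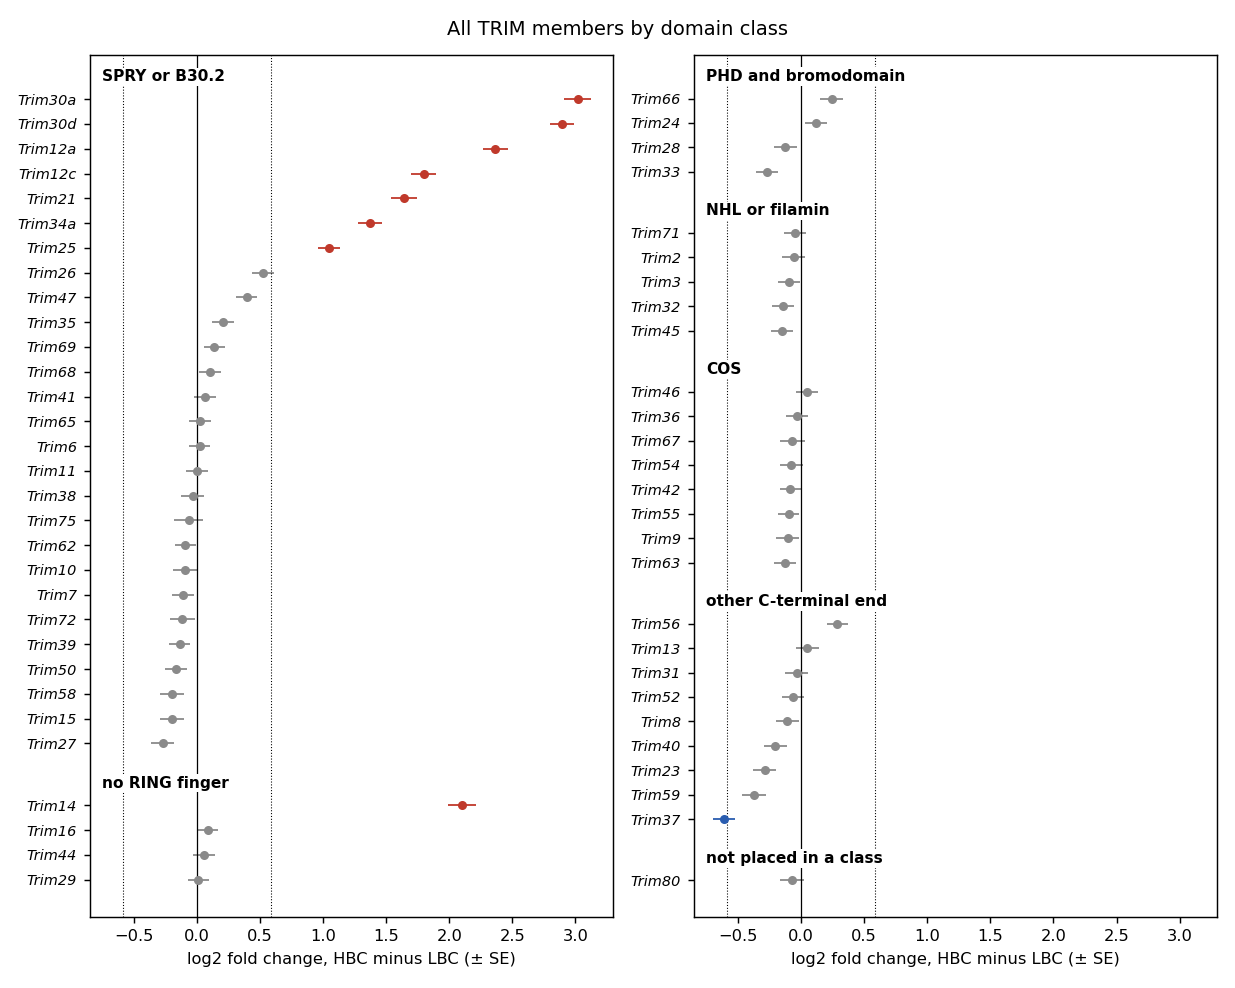
Log2 fold change (HBC minus LBC) of each member, grouped by the class of its carboxy-terminal end, with standard errors and with the fold threshold of 1.5 as dotted lines. The points called higher are 7 of the 27 members of the SPRY class and Trim14 among those without a RING finger, and Trim37 among the other ends is the point called lower.

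Among the chromatin members the differences were small. Trim28 (KAP1), the corepressor that zinc finger proteins bring to retroelements, read 1455, 1502 and 1349 in HBC and 1434, 1495 and 1788 in LBC. The groups overlapped (log2 fold change -0.12 ± 0.09, SE, adjusted p = 0.38). Trim33, which regulates SMAD signalling, read 1124, 1149 and 1049 in HBC and 1261, 1283 and 1488 in LBC. Every HBC array lay below every LBC array, at a log2 fold change of -0.27 ± 0.09 (SE, adjusted p = 0.029), short of the fold threshold.

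Trim27, a ligase first known as a fusion partner of RET, read 958, 974 and 895 in HBC and 1045, 1097 and 1287 in LBC. Again the groups did not overlap, at a log2 fold change of -0.27 (adjusted p = 0.034). Trim35 lay on the other side, at 1394, 1455 and 1321 in HBC and 1105, 1242 and 1261 in LBC, without overlap, but its adjusted p was 0.098. With the same alternatives it ran from 0.0088 (cyclic loess) to 0.21 (replicate block). Trim47 (log2 fold change 0.39, adjusted p = 0.0012) and Trim59 (log2 fold change -0.37, adjusted p = 0.0037) passed the adjusted p and not the fold. The same was true of Trim23, a ligase that carries a GTPase domain, at -0.29 (adjusted p = 0.026). By the methods' t-test the adjusted p was 0.057 for Trim47 and 0.15 for Trim59.

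Trim37 was the 1 member called lower in HBC. It encodes a ligase of peroxisomes and centrosomes, and loss of the human gene causes Mulibrey nanism, a growth disorder. It read 616, 609 and 535 in HBC and 839, 895 and 978 in LBC. The groups did not overlap, with means of 587 ± 44.9 in HBC and 904 ± 69.9 in LBC and a log2 fold change of -0.61 ± 0.09 (SE, adjusted p = 4.7e-06). This value lay just past the fold threshold. It came to -0.55 without HBC replicate 3, -0.55 without LBC replicate 3, -0.54 after cyclic loess, -0.57 after median centring and -0.58 with 50 added before the logarithm, which in each case ended the call.

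Within a group most called members ranked the arrays alike. LBC replicate 3 was the lowest LBC array in 7 of the 8 members called higher, Trim25 being the exception, while it was the lowest in 37.9% of the 507 genes called higher and in 38.8% of all genes. HBC replicate 2 was the highest HBC array in 7 of the 8, Trim34a being the exception, against 79.5% of the genes called higher and 37.8% of all genes. Of the 27 members not called with a mean over 100, LBC replicate 3 was the highest LBC array in 20 and the lowest in 5. The share of all genes in which it was the highest was not counted, so the 20 cannot be read as a trait of these members. Leaving out each array in turn gave log2 fold changes of 2.86 to 3.12 for Trim30a, 1.94 to 2.21 for Trim14 and 0.97 to 1.10 for Trim25, and all 8 genes were called each time.

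**Figure D4:**
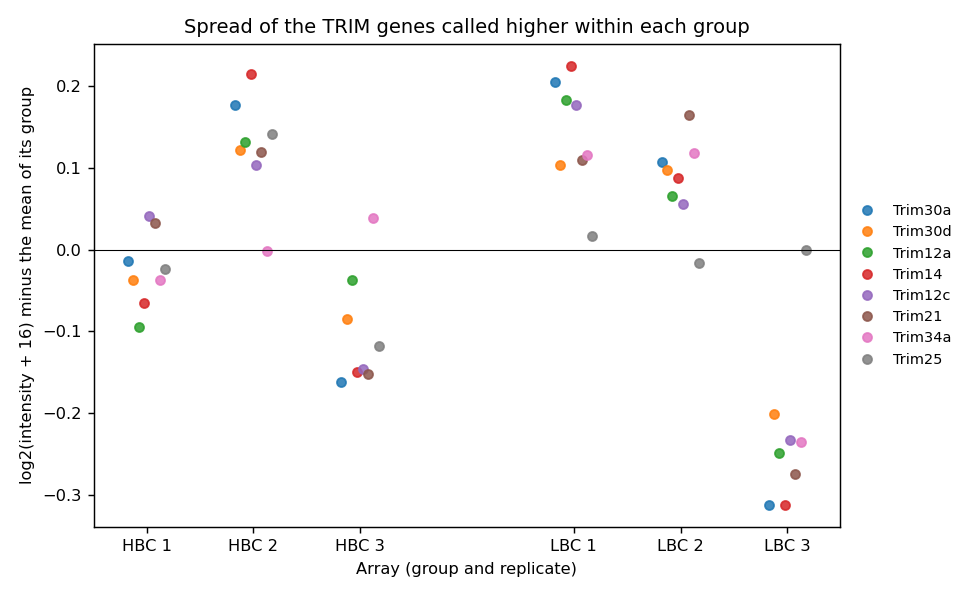
Log2(intensity + 16) of the 8 members called higher on each array, minus the mean of the gene over the 3 arrays of its group, with the 3 HBC arrays left of the 3 LBC arrays. HBC replicate 2 lies above 0 for all but Trim34a, and LBC replicate 3 lies lowest of its group for all but Trim25.

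TRIM proteins that carry another symbol were read beside the members. Of 8 such genes 2 were called higher, against 2.54% of all genes, and 0 lower by limma (0 at an unadjusted p under 0.05), against 1.13%. Pml, which builds the nuclear bodies named after it and is induced by interferon, read 970, 1090 and 928 in HBC and 519, 528 and 560.2 in LBC. No arrays overlapped, and the log2 fold change was 0.87 ± 0.09 (SE, adjusted p = 3.9e-09).

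Mid2, a microtubule-bound ligase, read 304, 309 and 282.5 in HBC and 175, 190.2 and 206 in LBC. It also showed no overlap, at a log2 fold change of 0.61 ± 0.09 (SE, adjusted p = 3.4e-06). That value was close to the fold threshold, and the call was lost at 0.58 without HBC replicate 2, at 0.55 without LBC replicate 1 and at 0.54 with 50 added before the logarithm. Its paralog Mid1, mutated in human Opitz syndrome, had 0.40 (adjusted p = 0.0011) and did not reach the fold. Mefv (pyrin), Rnf207, Cmya5, Fsd2 and Bspry had log2 fold changes between -0.14 and 0.03.

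Proteins that TRIM ligases act on or work with, and other genes of the same processes, were read from lists of their own, against the same 2.54% of all genes called higher. In RNA and DNA sensing, 5 of 16 measured genes were called higher and 0 lower by limma (1 was lower at an unadjusted p under 0.05), around a median change of 0.25. Ddx58, which encodes RIG-I, the substrate of TRIM25, read 3803, 4113 and 3499 in HBC and 1379, 1400 and 1367 in LBC. The groups did not overlap, and the log2 fold change was 1.45 ± 0.09 (SE, adjusted p = 2.9e-14).

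The sister sensor Ifih1 (MDA5) averaged 1091 ± 163 in HBC and 179 ± 24.3 in LBC, and Dhx58 (LGP2), which modulates both sensors, averaged 1662 ± 215 in HBC and 213 ± 44.6 in LBC. Their log2 fold changes were 2.50 and 2.89. Irf7, the transcription factor that drives interferon genes, had the largest of the list, 3.36 ± 0.15 (SE, adjusted p = 2.4e-17), with 1153 ± 170 in HBC and 102 ± 39.5 in LBC. With an offset of 1 the value of Irf7 was 3.57, and with an offset of 50 it was 3.01. Zc3hav1 had the smallest change of the genes called higher, 0.79 (adjusted p = 3.1e-08). The adaptor Mavs (0.15) and the kinase Tbk1 (0.05), which act between sensor and Irf7, were not called, nor was Tab2 (0.07), which TRIM30a targets. By adjusted p alone 8 of the 16 were higher, against 6.93% of all genes, and the 3 short of the fold were Rnf135, another ligase of RIG-I (0.42, adjusted p = 0.00046), the kinase Ikbke (0.35, adjusted p = 0.0030) and the adaptor Ticam1 (0.34, adjusted p = 0.0059).

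Among E2 enzymes and the ISG15 machinery, 4 of 17 measured genes were called higher and 0 lower by limma (0 at an unadjusted p under 0.05), around a median of -0.01. The 4 all belong to the ISG15 arm: Uba7, its E1 enzyme (2.28), Ube2l6, its E2 enzyme (1.87), Herc6, its ligase in mice (1.90), and Usp18, its protease (2.37). Uba7 was within the olfactory receptor span in LBC, and its value was 2.50 with an offset of 1 and 1.92 with an offset of 50. Ube2l6 averaged 1981 ± 263 in HBC and 527 ± 7.84 in LBC (adjusted p = 3.4e-16). The other 13, which serve ubiquitin and include Ube2d1, Ube2n and Ube2v1, lay between -0.21 and 0.14.

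Partners of the chromatin members were not called. In the TRIM28 repressor complex 0 of 13 genes were called by limma or by the methods' t-test, with a median of -0.14, Setdb1 at -0.18 and Zfp57 at -0.42. At an unadjusted p under 0.05, 1 was higher and 4 were lower, and 3 of the lower ones passed the adjusted p (11.4% of all genes). In the SMAD arm of TRIM33 0 of 7 were called by either test, with a median of -0.04 (1 higher and 2 lower at an unadjusted p under 0.05), and Skil, a SMAD corepressor, came closest at -0.58 (adjusted p = 2.0e-05). On the list for TRIM21 and antibody handling, 1 of 4 measured genes was called higher. It was Ifi30, a lysosomal thiol reductase of antigen processing and not a known partner of TRIM21. It read 1376, 1381 and 999 in HBC and 722, 754 and 810.2 in LBC (log2 fold change 0.69, adjusted p = 5.6e-06). The methods' t-test did not call Ifi30 (adjusted p = 0.097, within a range of 3.1e-09 to 0.097 over the alternatives that kept every array). Vcp, the unfolding ATPase that works with TRIM21, was at -0.15, Psmd14 at -0.02 and Fcgr2b at -0.05, and none of them was called.

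**Figure D5:**
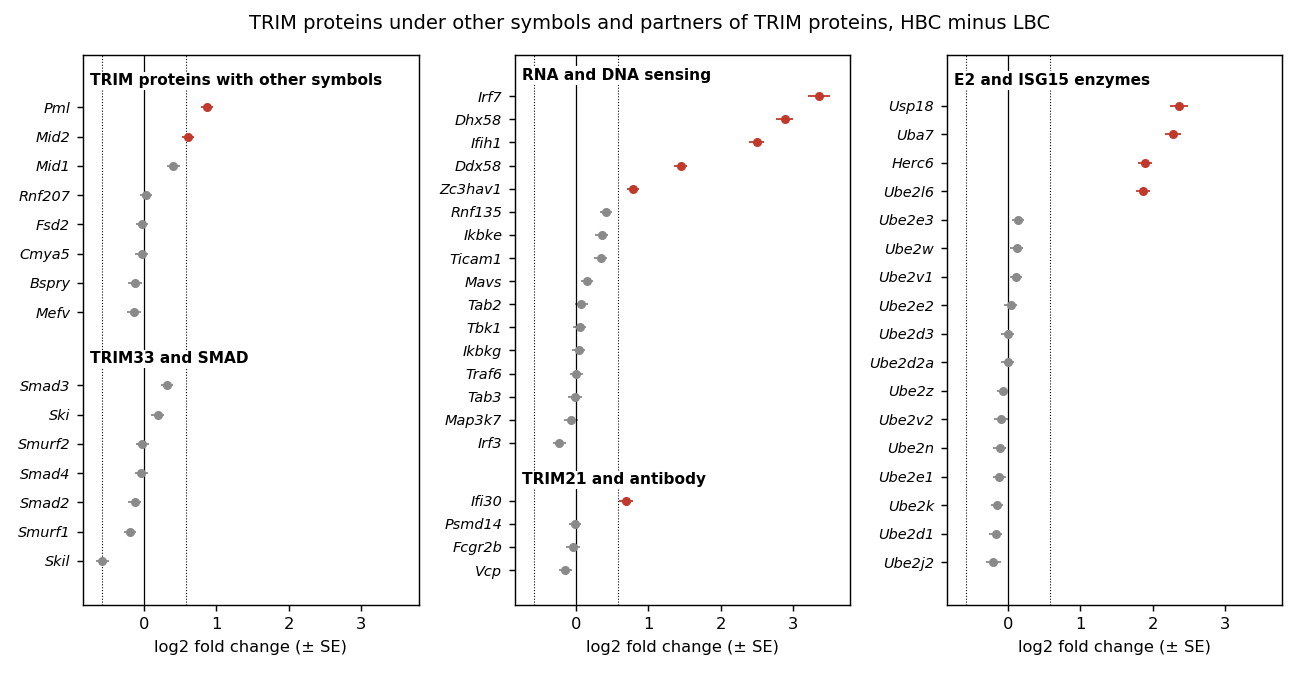
Log2 fold changes (HBC minus LBC) with standard errors for TRIM proteins under other symbols and for partners of TRIM proteins with other genes of the same processes, the TRIM28 complex left out. Red points are called higher and dotted lines mark the 1.5 fold threshold. Ddx58, Ifih1, Dhx58, Irf7 and the ISG15 enzymes reach 1.45 to 3.36, and Zc3hav1, also called higher, stands at 0.79. The ubiquitin E2 enzymes stay between -0.21 and 0.14.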

How the data were processed

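The authors deposited intensities on a linear scale for 35556 transcript clusters, which per the labels were made with Affymetrix Expression Console. Not given in the sources used here were the program's version, how probes were summarised and how arrays were scaled. Version 2.0 of the mouse gene array is named in the methods, but the identifiers fitted the annotation of an older one. Array medians were 122 to 132 in HBC and 131 to 135 in LBC, and the number of arrays limits the precision.

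Clusters with 1 symbol (21789) were used; 1621 with several symbols and 12146 with none were left out of the gene comparison, and the cluster with the highest mean stood for a gene. All 58 members matched RefSeq by gene identifier. Log2(intensity + 16) was fitted with limma 3.58.1 in R 4.3.3 (lmFit, eBayes) on 3 HBC and 3 LBC arrays, and p-values were adjusted over 19938 genes. The script was tested on simulated data. Alternatives were other scalings, offsets of 1 and 50, filters at a mean of 100, the methods' t-test, other variance priors, cluster rules and folds, a replicate block and each array left out.

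Named genes were all called members, the 5 members with the highest means, the 3 uncalled with the largest changes, the interferon-inducible list, TRIM proteins under other symbols and up to 4 called genes of each partner list; further genes were named after their values were seen. Members and lists were chosen with earlier results of these data known.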

Additional observations from a re-analysis of the deposited data

Results flagged for a closer look

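Clusters shared between several genes were left out of the gene comparison, and 6 of them carry a TRIM symbol. Limma over all clusters called 1.88% of 35556 higher in HBC, among them 2 of these 6. The cluster shared by Trim5, Trim12c and Trim12a read 545, 593 and 513 in HBC and 137, 146 and 112 in LBC, a log2 fold change of 1.94 ± 0.10 (SE; adjusted p = 7.7e-06). The cluster shared by Trim5 and Trim12c read 626, 681 and 544 in HBC and 156, 162 and 139 in LBC, a log2 fold change of 1.91 ± 0.10 (SE; adjusted p = 7.0e-06). Neither cluster overlapped between the groups, and which of its genes gave the signal cannot be told apart here. The cluster that includes Trim30b read 40.3, 30.1 and 34.7 in HBC and 35.6, 35.7 and 33.1 in LBC and was not called (adjusted p = 0.99). The clusters of Trim60 with Trim61 (0.04), of Trim43a, Trim43b and Trim43c (-0.17) and of Trim17 with H2aw (-0.21) were not called either.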

How the results depend on the processing

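The count of members called higher was 8 in every setting except a filter on means above 100 in both groups (5, because Trim12a, Trim14 and Trim30d had LBC means under 100), cyclic loess (9, with Trim26) and no fold threshold (11); leaving out each array gave 8 to 8. The interferon-inducible list gave 8 with every array left out in turn, 5 with that filter, 9 after cyclic loess and 10 with no fold threshold. The count called lower was 1, but 0 under cyclic loess, median centring, an offset of 50 and a fold above 2, 5 with no fold threshold, and 0 to 1 when an array was left out. The median of the members was -0.054, but 0.00064 after quantile normalization, 0.028 after cyclic loess, 0.048 with the filter in both groups and 0.050 with the filter in at least 1 group; leaving out an array gave -0.065 to -0.013. The median of all genes was -0.07, -0.03 after quantile normalization and after median centring, and -3.3e-05 after cyclic loess. With a replicate block 8 were higher and 1 lower, as without it. Same-numbered arrays did not deviate together (correlations -0.096, -0.24 and -0.50), so the numbers do not pair them. Correlations between arrays of different number ran from -0.47 (HBC replicate 2 with LBC replicate 1) to 0.49 (HBC replicate 3 with LBC replicate 1). No other pairing was fitted. No named gene changed direction past the threshold. The 3 arrays of 1 population limit what can be measured.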
